A study of Drosophila melanogaster with 2 samples.

Results

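The homeodomain protein Hmx was mapped by chromatin immunoprecipitation and sequencing (ChIP-seq) in Drosophila melanogaster embryos, and the results below concern its summits inside introns and away from transcript starts. A region of the final set was taken as intronic when its summit, the base with the highest signal, met 3 conditions. It lay more than 500 bp from every annotated transcript start, inside an annotated gene and in no annotated exon, on arm 2L, 2R, 3L, 3R, 4 or X. The rule used position only, and it kept 458 of the 1595 regions on these arms, out of 1607 in the set. The embryos carried an eGFP exon in an intron of Hmx, which gives a Hmx-eGFP fusion protein under the control of the gene's own locus. Males and females were pooled, whole embryos of 0 to 24 h were used, and the fusion was pulled down with an antibody to GFP, although the labels also give Hmx as the antibody's target. There were 2 samples, biological replicates numbered 2 and 3, in 1 group. The control alignment and untagged embryos were not analysed here, and signal from all tissues and stages in the collection is mixed.

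Hmx belongs to the NK-related class of homeodomain proteins, which bind short DNA sites that are usually rich in A and T around a TAA core. Its vertebrate relatives are known for roles in the inner ear, the eye and sensory neurons, and in the fly embryo Hmx is expressed in the developing nervous system and brain. Introns of fly genes hold many enhancers, stretches of DNA that transcription factors bind to control a gene from a distance. First introns lie closest to the start and are often the longest of a gene. A ChIP-seq summit marks where signal peaked and does not by itself show direct contact with the DNA, nor which gene is affected.

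Each region carried a signal value in the peak caller's own units, which ranks regions within a list. No read counts were analysed here, so depth is unknown and gives no interval. The final set was the one that passed the irreproducible discovery rate (IDR) procedure, and it was derived from the lists of both replicates, so a match to a replicate is in part built in. Each replicate also had its own list of 30000 regions, from which the 1607 strongest were taken to apply the same rule to each replicate alone. With 1 group of 2 samples, and summits that share chromosomes and libraries, no test was made. Intervals are 95% Wilson intervals and cover counting error only. The spread between replicates is given by the values of both.

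The sequences under 7 of the 8 strongest intronic summits, shown because they let the base composition described further on be read directly, are printed 5′ to 3′ on the plus strand of dm6 from the RefSeq copy of the assembly. Capitals mark runs of 6 or more A or T letters, and each window reaches 50 bp to either side of the summit. The ush window is chr2L:481034-481134, the CG11050 window chr2L:6612676-6612776, the Lk6 window chr3R:11760991-11761091, the CG32772 window chrX:4910316-4910416, the Trl window chr3L:14759504-14759604, the CG9663 window chr2L:3302126-3302226 and the Tlk window chrX:3742156-3742256.
ush summit: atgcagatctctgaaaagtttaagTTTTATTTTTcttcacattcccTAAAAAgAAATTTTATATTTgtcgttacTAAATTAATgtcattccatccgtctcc
CG11050 summit: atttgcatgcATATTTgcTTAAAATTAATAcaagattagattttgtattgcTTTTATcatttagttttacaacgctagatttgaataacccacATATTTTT
Lk6 summit: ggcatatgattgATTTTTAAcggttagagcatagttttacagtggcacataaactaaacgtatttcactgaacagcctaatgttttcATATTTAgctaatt
CG32772 summit: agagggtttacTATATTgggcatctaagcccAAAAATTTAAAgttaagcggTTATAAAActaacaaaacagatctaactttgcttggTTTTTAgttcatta
Trl summit: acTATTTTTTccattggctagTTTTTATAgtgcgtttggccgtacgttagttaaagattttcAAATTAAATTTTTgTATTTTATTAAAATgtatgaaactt
CG9663 summit: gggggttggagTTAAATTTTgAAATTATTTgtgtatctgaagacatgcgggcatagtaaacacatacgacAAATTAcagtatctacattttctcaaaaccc
Tlk summit: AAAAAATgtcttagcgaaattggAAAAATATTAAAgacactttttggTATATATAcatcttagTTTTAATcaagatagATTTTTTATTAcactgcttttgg
For comparison, the 2 windows of equal width centred 300 bp to either side of the Trl summit, chr3L:14759204-14759304 and chr3L:14759804-14759904, and the window of CG32486, chr3L:3060728-3060828, were printed the same way. The last is a strong summit that is not A+T-rich.
Trl left flank: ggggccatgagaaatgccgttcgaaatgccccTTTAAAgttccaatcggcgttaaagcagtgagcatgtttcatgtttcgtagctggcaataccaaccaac
Trl right flank: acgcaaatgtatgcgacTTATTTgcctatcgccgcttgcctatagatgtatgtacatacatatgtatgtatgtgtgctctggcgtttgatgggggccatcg
CG32486 summit: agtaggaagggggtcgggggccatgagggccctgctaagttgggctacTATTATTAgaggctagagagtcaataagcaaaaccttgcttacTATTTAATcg
Capitals covered 43 bases at the Trl summit and 6 bases in each of its flanks. They covered 45 bases at the Tlk summit, 38 at the ush summit, 32 at the CG11050 summit, 31 at the CG32772 summit, 24 at the CG9663 summit and 15 at the Lk6 summit. The CG32486 window had 16, and its flanks had 16 and 20. The contrast at Trl is among the wider ones. At CG9663 the right flank had 24 bases, as many as the summit, and in CG3726 the summit and its left flank had 38 each. In for, the summit had 23, below the 29 and 26 of its flanks, of which the left one is exonic.

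Most intronic summits lay in first introns and near starts. Of the 458, 361 lay in the first intron of at least 1 transcript, 78.8% (74.8 to 82.3%), whereas 43.4% of the intronic bases that the rule could have taken lay there. The share was 79.3% in replicate 2 alone and 76.6% in replicate 3 alone. Of these 361 summits, 218 were in a first intron of every transcript that spans them and 143 in a first intron of some transcripts and a later one of others. The other 97 were in later introns only. This gives 15.7 summits per Mb of first intron and 3.24 per Mb of later intron. Replicate 2 gave 15.05 and 3.01 per Mb and replicate 3 gave 16.5 and 3.88 per Mb. The share depends on the definition. Counting only summits that are in a first intron of every transcript gave 47.6%, against 26.1% of the bases.

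Intronic summits thinned out with distance from the nearest start of any gene. The median distance was 1797 bp, with quartiles of 950 and 3710 bp and a range of 504 to 42226 bp, whereas the median over all bases the rule could have taken was 5615 bp. The median was 1601 bp in replicate 2 alone and 1879 bp in replicate 3 alone. Between 0.5 and 1 kb there were 122 summits, or 27.7 per Mb of available intron. Density was 18.1 per Mb at 1 to 2 kb, 9.68 at 2 to 5 kb, 4.88 at 5 to 10 kb, 2.33 at 10 to 20 kb and 0.925 beyond 20 kb. Each step outward was lower than the last in the IDR set and in both replicates alone. Beyond 5 kb lay 82 summits, 17.9%, of which 8 were beyond 20 kb.

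First introns were also denser than later ones at equal distance. At 0.5 to 1 kb the density was 34.4 per Mb in first introns and 12.5 per Mb in later ones, and at 5 to 10 kb it was 7.42 and 2.99 per Mb. This held in all 6 distance bins, in the IDR set and in each replicate alone. The bin beyond 20 kb held only 8 summits, so its 2.21 per Mb in first introns and 0.686 per Mb in later introns rest on few counts.

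**Figure D1:**
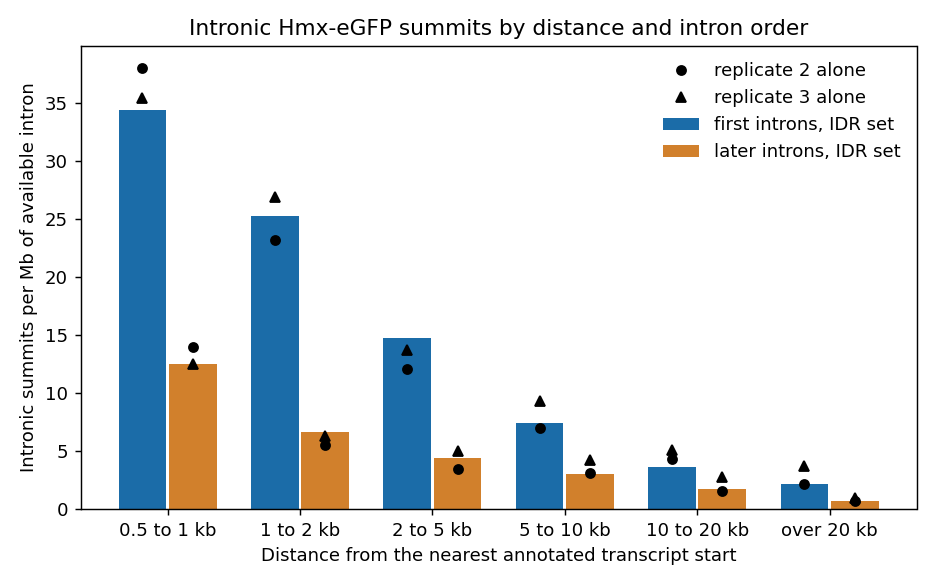
Intronic summits per Mb of available intron (vertical axis) by distance from the nearest annotated start (horizontal axis). Blue bars are first introns and orange bars later introns in the IDR set, and black circles and triangles are replicates 2 and 3 alone. Density falls from bin to bin outward, and first introns lie above later introns in every bin.

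The limit of 500 bp cut through a slope. Just outside it lay summits in aop, which encodes an ETS-family repressor (504 bp, signal 99.3), osp (505 bp, signal 124.5) and kuk, which encodes a nuclear envelope protein (509 bp, signal 188.3). Just within it, and so not members, lay summits in alpha-Est10 (500 bp, signal 79.9), CG4615 (499 bp, signal 87.7) and qtc (487 bp, signal 119.5). Within the limit there were 272 intronic summits, at 53.0 per Mb between 250 and 500 bp and 75.9 per Mb up to 250 bp.

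The nearest start usually belonged to the gene that held the summit. This was so for 375 of 458 summits, 81.9% (78.1 to 85.1%), and for 55.9% of the bases the rule could have taken. By contrast, 307 summits, 67.03%, lay downstream of their nearest start, close to the 65.7% of available bases. The host introns had a median length of 10387 bp, and 274 summits, 59.8% (55.3 to 64.2%), lay before the middle of theirs. The member farthest from any start was in mamo, a gene for a zinc-finger protein of the germline, in the region chrX:13890899-13891334, at 42226 bp, with a signal of 86.6, and of 49.7 in replicate 2 and 36.3 in replicate 3. A summit in kirre, which encodes an immunoglobulin protein of muscle founder cells, was 36724 bp away.

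Intronic signal was modest, with a few very strong summits. The median was 105.9 for intronic summits, with quartiles of 89.0 and 137.8, against 116.8 for promoter summits and 100.7 for intergenic ones, and the ranges of 78.6 to 967.5, 78.4 to 1041 and 78.5 to 517.4 overlapped. In replicate 2 alone the medians were 58.4, 63.5 and 55.7, listed in the same sequence of classes. In replicate 3 alone they were 49.8, 55.5 and 50.1, so the intronic median was there slightly below the intergenic one. When the nuclear regions were ranked by signal and cut into 4 equal groups, intronic summits made up 22.3% of the strongest group, then 29.1%, 32.6% and 30.9% of the weaker ones. First-intron summits had a median of 106.8 and later-intron summits 102.4. Signal was weakly related to distance from the start, with a Spearman coefficient of -0.18 over 458 summits that share the same libraries.

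The strongest intronic summit was in ush, a gene for a zinc-finger partner of GATA factors, in its first intron. Its signal was 513.6 in replicate 2 and 452.0 in replicate 3, and 967.5 in the IDR set. Its nearest start, 1396 bp away, was that of the neighbouring cbt, a gene for another zinc-finger factor. Next came CG11050, with 439.1 in replicate 2 and 423.3 in replicate 3, where the summit fell in a second intron of only 140 bp and the region extended beyond it. Lk6, which encodes a kinase of the translation factor eIF4E, had 328.7 in replicate 2 and 333.6 in replicate 3 in its first intron. Both replicates therefore placed these 3 summits far above their intronic medians.

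The rest of the 15 strongest ran from 537.4 in CG32772 to 318.0 in for, a gene for a cGMP-dependent kinase. The chromatin gene Trl, which encodes GAGA factor, had 273.8 in replicate 2 and 252.3 in replicate 3 in a second intron. The shared intron of HmgZ and HmgD, genes for HMG-box chromatin proteins, had 255.4 in replicate 2 and 275.2 in replicate 3. Tlk, which encodes the Tousled-like kinase, had 238.2 in replicate 2 and 211.5 in replicate 3. The others lay in CG9663, CG9837, chif (shared with Hyls1), Adf1, CG32486, CG3726 and the intron that CG46321 and CG12912 share with the nuclear receptor gene Hr3. Among the 15, the CG11050 and Trl summits alone lay in later introns only, and those of CG32486 (5699 bp) and Hr3 (7900 bp) alone were over 5 kb from a start.

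Most intronic summits had a match in each replicate, which is in part built in because the IDR set was derived from these lists. Among all 30000 regions, a summit of replicate 2 lay within 250 bp of 454 of the 458, and likewise a summit of replicate 3. A region among the 1607 strongest was matched for 353 (77.1%) in replicate 2, for 366 (79.9%) in replicate 3 and for 281 (61.4%, 56.8 to 65.7%) in both. The last share was 65.7% for promoter summits and 55.1% for intergenic ones. Signal of the 2 replicates had a Spearman coefficient of 0.544 over 450 intronic summits, of 0.664 over 923 promoter summits and of 0.392 over 133 intergenic summits, all drawn from the same 2 libraries. The strongest summits lay close to a line, and the spread was wide among the weak ones.

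Some members rested mainly on 1 replicate. A summit in crp had 68.4 in replicate 2 and 13.8 in replicate 3, where it ranked 29563 of 30000, and one in CG18135 had 85.6 and 14.4. No replicate 3 summit matched the summit in upSET, 1 of those in Kdm2, 1 of those in wit and 1 of those in pum. No replicate 2 summit matched those in nAChRalpha3, Ptp61F and Doa, and 1 of those in CHES-1-like. These genes were named after their values were seen. For 8 summits, in 4 close pairs, both members of the pair matched the same summit of a replicate. This holds for the point at 255.4 and 39.9, a second HmgZ summit that took the replicate 2 value of its stronger neighbour.

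**Figure D2:**
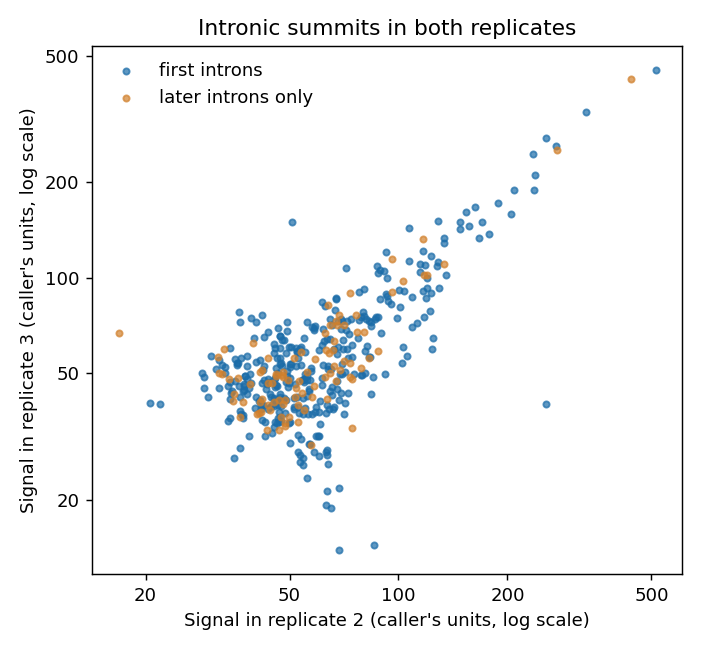
Signal in replicate 2 (horizontal) and replicate 3 (vertical) of the 450 intronic summits matched in both, on log scales in the caller's units. Blue points are first introns and orange points later introns only. Points above 200 in both replicates lie along a line, while those below 100 scatter.

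Summits came in clusters within some genes. Another intronic summit lay within 5 kb of 125 of the 458, 27.3% (23.4 to 31.5%). The share was 24.7% for promoter summits near other promoter summits and 11.0% for intergenic ones. Such shares depend on the number of summits, here 958 promoter and 136 intergenic, and on the bases open to each class. They therefore do not show which class clusters more. The intronic share was 26.9% in replicate 2 alone and 23.8% in replicate 3 alone. Joined at 5 kb, the 458 formed 333 singles, 43 pairs, 8 groups of 3 and 1 group each of 4, 5 and 6. Of the 125 clustered summits, 117 shared a host gene with another summit of their group. Regions of 24 summits overlapped that of another. When only the strongest of overlapping regions was counted, a choice made after seeing the data, 446 summits were left and 23.3% had another within 5 kb. A promoter summit lay within 5 kb of 91 intronic summits, 19.9%.

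The gene with most intronic summits was CHES-1-like, which encodes a forkhead transcription factor (chrX:7682338-7709385 in dm6), with 7, all in first introns. Of these, 6 lay within 8.50 kb of each other. Signal of the 7 ran from 78.9 to 251.6 in the IDR set and from 27.7 to 143.8 in replicate 3, and from 41.9 to 123.7 at the 6 matched in replicate 2. By the rule in each replicate alone, CHES-1-like held 5 summits in replicate 2 and 5 in replicate 3.

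Hr4 (chrX:1941940-2007956), a gene for a nuclear receptor of the ecdysone response, held 6 summits, of 80.7 to 197.4, and 6 in each replicate alone. Of these, 4 lay within 8.16 kb in an intron that is first for some transcripts. Raf (chrX:2295466-2343870), which encodes the kinase that Ras activates, held 5 summits over 7.76 kb in its second intron, none of them in a first intron. The Raf signals in the IDR set were 189.1, 248.1, 124.4, 92.6 and 79.3 in gene order, the strongest being 2250 bp from the start, with 117.0 in replicate 2 and 132.5 in replicate 3. Each replicate alone gave 4 in Raf. The zinc-finger gene shn, active in the Dpp response, and the co-repressor gene sbb held 5 each, of 81.1 to 142.6 in shn and of 78.8 to 130.4 in sbb.

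Genes with 4 were Tlk, simj (a subunit of the NuRD chromatin complex), crp (a bHLH factor), kirre and lncRNA:CR44357. The 4 simj summits were all above 140, at 210.8, 186.2, 179.4 and 140.4. Regions of the 179.4 and 140.4 summits overlap, with summits 199 bp apart, and 2 of the 3 regions in PRAS40 overlap too. Counts per gene include such overlapping regions. Of the 4 in kirre, a gene of 394.1 kb, 2 with signals of 142.4 and 117.7 lay close together where kirre overlaps CG32795 and are counted for both genes. Genes with 3 were Trl, PRAS40, NFAT, Smr, CG14434, mam, tou, Nuak, CG1677, tara, CG32264, pum and CG5151. They include chromatin and co-regulator genes such as Trl, the co-repressor gene Smr and the Notch co-activator gene mam. The strongest summit reached 530.8 in Trl and 299.5 in PRAS40, a regulator of TOR signalling, whereas in pum, which encodes a repressor of translation, and CG5151 none exceeded 91.5. The 3 of CG1677 lie within lncRNA:CR44357 and are counted for both genes.

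**Figure D3:**
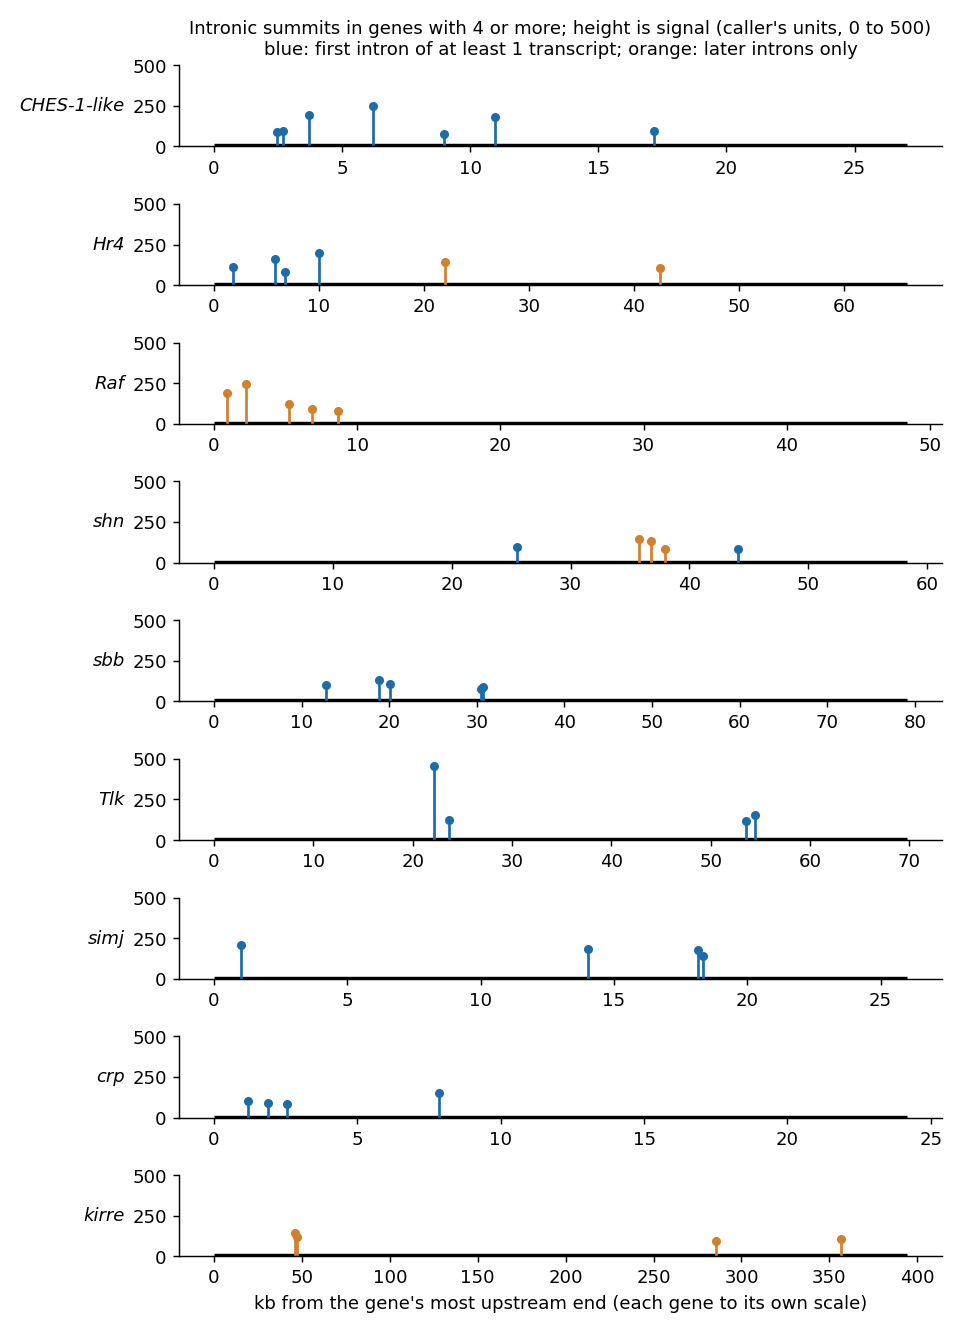
Intronic summits along the protein-coding genes with 4 or more, each drawn 5′ to 3′ on its own kb scale, with height as signal in the caller's units. Blue marks first introns of at least 1 transcript and orange later introns only. CHES-1-like and Raf show tight runs of summits in their upstream parts, while kirre, drawn over 394.1 kb, has a close pair and 2 summits far apart.

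The intronic summits had 376 host genes, of which 295 held 1 summit, 58 held 2 and 23 held 3 or more. Of the 9101 protein-coding genes with bases the rule could take, 367 (4.03%) hosted at least 1, and 350 (3.85%) did in replicate 2 alone and 398 (4.37%) in replicate 3 alone. Of the 367, 295 were also hosts in replicate 2 alone and 310 in replicate 3 alone. Host genes were long, with a median length of 18408 bp, against 3543 bp for all 9101. The share of hosts grew with the available bases, being 0.658% of genes with up to 2 kb of them and 22.1% of genes with over 50 kb. Summits per Mb were 17.1 in genes with up to 2 kb, highest at 23.8 in genes with 2 to 5 kb, and 3.63 in genes with over 50 kb. Genes with over 50 kb thus hosted most often and held fewest summits per base.

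Hosts also had promoter summits more often than other genes. A promoter summit lay at an own start of 91 of the 367 hosts, 24.8% (20.7 to 29.5%), and of 876 of the 8734 other genes, 10.03% (9.42 to 10.7%). The shares were 22.9% and 10.7% in replicate 2 alone and 21.9% and 9.25% in replicate 3 alone. Gene length, which differs between hosts and other genes, was not held equal in this comparison. Across arms, intronic density was 11.9 per Mb on X, 9.34 on 3L, 8.76 on 2R, 7.23 on 3R, 6.64 on 2L and 3.48 on 4, where there were only 2 summits. X was also the highest in replicate 2 alone (11.1 per Mb) and replicate 3 alone (12.1 per Mb).

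Among the gene lists, the share of hosts is to be read against the 4.03% of all protein-coding genes and the density against 8.67 summits per Mb. Both depend on gene size. Among all protein-coding genes, those with 20 to 50 kb of available bases had 16.8% hosts and 7.87 summits per Mb, and those with over 50 kb had 22.1% and 3.63 per Mb. Size was not held equal, so neither measure sets a list apart. Of the BMP pathway genes, 7 of 14 were hosts (5 in replicate 2 alone, 9 in replicate 3 alone), at 53.5 summits per Mb. The hosts were led by Dad, the inhibitory Smad, whose intronic region chr3R:17064928-17065363 had 133.5 in replicate 2 and 110.5 in replicate 3. They included shn, the glypican gene dlp and cv-2, and shn held 5 of the list's 14 summits. Of the EGFR and Ras genes, 6 of 21 were hosts, at 35.5 per Mb, with Raf, aos (a secreted inhibitor of the receptor), drk (an adaptor) and aop. Raf held 5 of the 11 summits of this list. The Notch list had 3 of 15, mam, N and neur, at 19.6 per Mb, and the Wnt and Hedgehog list 3 of 24, arr, fz2 and fz, at 7.53 per Mb.

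Homeobox genes, the family of Hmx, had 3 hosts of 69 (4.35%), against 4.03% of all protein-coding genes. These were ct, Antp and NK7.1, with 1 summit each and 2.69 per Mb. Homeobox genes were larger than most, with a median of 9.8 kb of available bases. All protein-coding genes with 5 to 10 kb of such bases had 10.9% hosts and 18.9 summits per Mb, both above the homeobox values. The homeobox median lies near the upper edge of that bin, and genes with more bases weigh more in a density. Density was 12.5 per Mb in the next larger bin and 3.63 per Mb in the largest. The value of 18.9 per Mb is therefore not a like measure for the whole list. Neither difference was tested. Signal was 42.5 in replicate 2 and 64.9 in replicate 3 at ct, 50.5 and 60.7 at Antp, and 46.1 and 45.6 at NK7.1. Hmx itself was not a host. Replicate 2 alone gave 2 homeobox hosts and replicate 3 alone 4. Forkhead genes had 2 hosts of 10, CHES-1-like and jumu, with 9 summits and 145.1 per Mb, of which CHES-1-like held 7. Nuclear receptor genes had 4 of 18, Hr3, Hr4, ftz-f1 and Eip75B, at 26.5 per Mb, and the ecdysone list, which shares those 4, had 5 of 13 at 18.7 per Mb with br added. Basic helix-loop-helix genes had 4 of 33, crp, SREBP, Mnt and nau, at 25.4 per Mb. Zinc-finger factor genes had 7 of 46, led by ush, shn, ken and dar1, at 15.3 per Mb. Polycomb, trithorax and insulator genes had 3 of 33, Trl, trx (a histone methyltransferase) and ph-p, at 65.3 per Mb over introns that total only 0.0919 Mb. Single genes weighed heavily in several of these densities. Hr4 held 6 of the 11 nuclear receptor summits and crp 4 of the 8 basic helix-loop-helix summits. Trl held 3 of the 6 Polycomb, trithorax and insulator summits.

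The axon guidance, cell adhesion, ion channel and RNA-binding lists had densities below the 8.67 per Mb of all available introns. The kinase and epithelial lists, given last, were above it. Whether gene size accounts for this was not tested. Axon guidance genes had 1 host of 21 (4.76%), the netrin receptor gene fra, at 1.94 per Mb, although replicate 3 alone gave 4. Cell adhesion genes had 3 of 41 (7.32%), kirre, mew (an integrin) and Fas3, at 3.06 per Mb, and their introns totalled 2.29 Mb. Ion channel genes had 4 of 32 (12.5%), at 5.23 per Mb, led by norpA, which encodes the phospholipase C of phototransduction and not a channel, then KCNQ, Irk1 and nAChRalpha3. RNA-binding protein genes had 6 of 31 (19.4%), at 5.79 per Mb, led by brat, mub, shep and elav. Kinase and phosphatase genes had 10 of 36, led by Lk6, Mekk1, InR and dco, at 16.3 per Mb. Epithelial and tracheal genes had 7 of 19, with rib, dlg1, cno and aPKC at 17.5 per Mb.

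On average, intronic summits sat in short A+T-rich stretches, though not every one did, as the printed CG32486 window shows. Mean G+C content was 30.7% within 50 bp of the summit and 43.4% in the windows 300 bp to either side, a difference of -12.7 percentage points, and it was lower at the summit for 410 of 458, 89.5%. All available intronic bases had 39.7%, so the summits were below and the flanks above that level. Flank windows, here and for the words below, were not held to introns. Some lie in exons, as do the right flank of CG11050 and the left flank of for. What exons add to the flank means was not tested. Replicate 2 alone gave 30.7% at summits and 43.4% in flanks, and replicate 3 alone 31.2% and 42.6%. The dip was alike in first introns (-12.6 points), later introns (-13.0 points) and members over 5 kb from a start (-11.9 points). Promoter summits had 31.2% at the summit and 44.3% in flanks, and intergenic summits 31.3% and 43.8%. Signal was nearly unrelated to G+C at the summit, with a Spearman coefficient of -0.062 over 458.

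**Figure D4:**
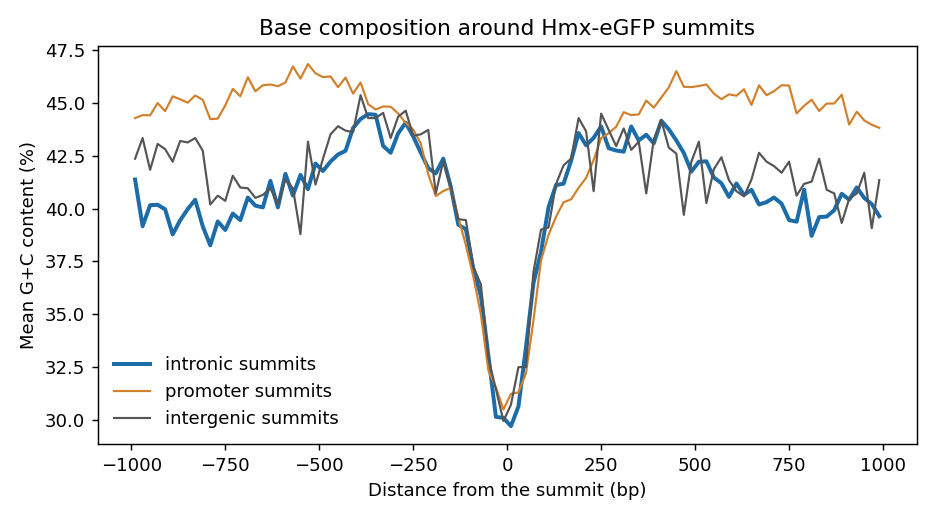
Mean G+C content in percent (vertical) against distance from the summit in bp (horizontal) for intronic, promoter and intergenic summits. All 3 curves fall to about the same low point at the summit, 29.7% for intronic summits, whose highest value is 44.5%. The curve of promoter summits stays higher beyond 500 bp.

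Runs of 6 or more A or T letters covered 29.9 bases of the intronic summit windows on average, against 14.1 bases of the flanks and 17.8 bases of windows tiled over the available introns. Promoter summits had 30.6 bases. The letters TTTAAA, which read the same on both strands, were in 22.7% of intronic summit windows, 6.44% of flanks and 10.9% of tiles, and TTAAAA on either strand in 36.5%, 13.3% and 18.6%. Because the summits are A+T-rich, any word without G or C is more frequent there. The median ratio of summit to flank was 2.53 over the 36 words of 6 letters without G or C, against 3.53 for TTTAAA and 2.74 for TTAAAA.

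In the IDR set, the words searched here as homeodomain-type sites, given next, stayed below the median of words of like composition. TAATTA was in 12.2% of summits and 5.24% of flanks, a ratio of 2.33, and in 7.56% of tiles. TAATTG on either strand was in 14.2% of summits and 8.30% of flanks, a ratio of 1.71, against a median of 2.00 for words with 1 G or C, and in 10.9% of tiles. TAAGTG was in 5.24% of summits, 4.91% of flanks and 5.18% of tiles, a ratio of 1.07, against a median of 1.31 for words with 2 G or C letters. CAAGTG, which is close to the site reported for vertebrate Hmx proteins, was in 3.49% of summits, 7.86% of flanks and 6.70% of tiles, a ratio of 0.444, against a median of 0.750 for words with 3 G or C letters. Replicates 2 and 3 alone gave ratios of 0.483 and 0.50 for it. These words do not stand for every word with a TAA core. When all words were ranked by ratio, ATAATC had 4.08 against a median of 2.00. TAATAA had 3.61 against a median of 2.53. Replicates 2 and 3 alone gave 2.87 and 2.40 for ATAATC, and 3.22 and 2.83 for TAATAA. The latter words were picked by their high ratio in the same windows. A match is a string of letters and not a bound site.

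Words of other factors went either way. Among those of 6 letters, ratios of summit to flank fell as G and C letters rose, though several differed from the median of words of like composition. The ratio was 1.83 for AGATAA, against the median of 2.00 for words of like composition, 1.37 for CATATG against 1.31, and 0.96 for CAGGTA against 0.75. It was 0.518 for GAGAGA against 0.75, and 0.364 for CAGCTG, 0.182 for CTCGAG and 0.118 for CACGTG against 0.415. CTCGAG and CACGTG were each in only 1 of 458 summit windows. For CAGGTA the ratio was 0.571 in replicate 2 alone and 0.963 in replicate 3 alone. GAGAGA, the letters bound by GAGA factor, was in 4.80% of intronic summits, 9.28% of flanks and 3.85% of tiles. The GATA-type word AGATAA was in 9.61% of summits, 5.24% of flanks and 6.13% of tiles. Of the E-box words, which basic helix-loop-helix proteins bind, CAGCTG was in 2.18% of summits, 6.00% of flanks and 3.58% of tiles. CACGTG was in 0.218% of summits, 1.86% of flanks and 1.11% of tiles, whereas CATATG was in 5.68%, 4.15% and 3.11% of them. The word CAGGTA, found at early embryonic enhancers, was in 2.62% of summits, 2.73% of flanks and 1.90% of tiles. The 7-letter word TGACTCA, an AP-1 type site, was in 0.655% of summits, 1.42% of flanks and 0.909% of tiles. CTCGAG was in 0.218% of summits, 1.201% of flanks and 1.30% of tiles. The 8-letter word TATCGATA, known from promoters, was in 1 of 458 intronic summits (0.218%) and in 19 of 958 promoter summits (1.98%), beside 0.217% of tiles.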

How the data were processed

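The authors deposited lists of regions from ChIP-seq of 2 biological replicates. Before deposit, the authors gave each region a signal value in the caller's units, against a control alignment per the file records, a −log10 q value and a summit position. The deposited −log10 q was 2.18 for every region of the IDR set and was not used to rank. The file records say that the IDR set was derived from the replicates' lists; the aligner is not given in the sources used here, nor are the caller and the IDR threshold. The dm6 lists were used, and the mitochondrial regions were left out.

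Genes came from Ensembl release 115 (BDGP6.54) without transposable elements, with 23581 distinct starts, and sequence from the RefSeq copy of the same assembly. Coordinates are 1-based. Each base of the arms was put in the class of the rule, which gave 52.8 Mb of available intron. A replicate summit within 250 bp counted as a match. Gene lists were matched by symbol or current name, and all symbols were found; 1 list is not reported here. Motifs were searched on both strands in windows of 50 bp to either side. Genes were named by a rule: hosts of the 15 strongest summits, hosts of 3 or more, the farthest member, those beside the 500-bp limit and up to 4 examples a list, strongest first. Members and lists were chosen with earlier results of these data known. Python 3.11.15, numpy 2.4.6 and scipy 1.17.1 were used, and the position classes were tested on simulated data. Other peak lists, limits, annotations, definitions of a first intron, linking distances and windows were tried.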

Additional observations from a re-analysis of the deposited data

How the results depend on the processing

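Of the 6 summary values only the G+C difference could change sign, and it stayed negative under every alternative. Of 50 alternatives over the 6 values, 29 left the value the same and 21 moved it. For values other than the number of summits, moved means a difference of at least the standard deviation between the replicates alone. The replicates alone are themselves among the alternatives, so their labels are in part built in. For the number of summits a wider limit was used, under which 336 and 579 summits counted as the same as 458. The counts of 29 and 21 therefore do not measure how robust the values are. Each replicate alone gave 435 to 495 intronic summits, first-intron shares of 76.6 to 79.3%, median distances of 1601 to 1879 bp, clustered shares of 23.8 to 26.9%, and G+C differences of -12.6 to -11.4 points. Their median signals of 49.8 to 58.4 are on each list's own scale. The nuclear regions above the median signal held 205 intronic summits with a median distance of 1554 bp, 22.4% clustered, a median signal of 142.6 and a G+C difference of -13.8 points. Requiring over 250 bp from a start gave a median distance of 1277 bp and 30.7% clustered. Requiring over 1000 bp gave a first-intron share of 76.2%, a median distance of 2600 bp and 24.1% clustered. The first-intron share was 47.6% when first in every transcript and 54.1% when first in the longest. The clustered share was 19.2% at 2 kb, 32.1% at 10 kb and 23.3% for the strongest of overlapping regions, an alternative chosen after seeing the data. Flanks 600 bp away gave a G+C difference of -10.2 points. Beyond what each definition sets, the cause was not tested. No paired analysis was possible because there was 1 group only. Depth is unknown.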

Other observations

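Of all words of 6 letters present in at least 10% of intronic summit windows, 212 in number, the one with the highest ratio of summit to flank was TTATAA, in 13.8% of summits, 3.28% of flanks and 5.86% of tiles, a ratio of 4.2. Replicates 2 and 3 alone gave 3.20 and 3.35, and promoter summits 3.00. AATCTA, read on either strand, had a ratio of 4.00, and 3.87 and 4.72 in the replicates alone, against 2.29 at promoter summits. These words were chosen by their ratio in the same windows, and the differences between intronic and promoter summits were not tested. The median share of masked bases in the reference was 22.8% over intronic summit windows, with quartiles of 7.18 and 39.6%. Of all available bases, 23.0% were masked. That is a pooled share and not a median over windows, so the values are not like measures.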
